A study of Mus musculus with 2 samples.

Results

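Among the sites that Gata1 occupied in blood-directed cells grown from mouse embryonic stem cells, 869 of 4133 nuclear peaks (21.0%, 95% Wilson interval 19.8 to 22.3%) lay deep inside protein-coding genes. A peak was counted as deep when its midpoint was inside a protein-coding gene of the RefSeq annotation and over 10 kb from the nearest end of any gene of any biotype. These 869 peaks fell in 701 host genes, and 3 of them lay where a pair of genes overlap. The stem cells formed embryoid bodies, aggregates in which early blood develops, and on day 5 of differentiation cells positive for both a Runx1-ires-GFP and a Gata1::mCherry reporter were sorted. Chromatin from several sorts was pooled, fixed with 1% formaldehyde and precipitated with 7 µg of a rabbit antibody to Gata1. A control library of the same kind of cells, titled input chromatin but with a rabbit IgG given as its antibody, was not analysed here. There was 1 Gata1 library and no replicate, the cells were made in culture, the labels name no stem cell line, and peaks do not measure expression, so the sorted cell type could not be checked against marker genes. Intervals and tests below therefore cover the counting of peaks and genes, not the spread between cultures.

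Gata1 is a zinc finger transcription factor that binds the sequence GATA and is needed for red cells and megakaryocytes to mature. With Tal1, Lmo2 and Ldb1 it occupies enhancers, which often lie in introns, and it works with the cofactor FOG-1 (the product of Zfpm1). It also binds at some promoters inside genes, where shorter transcripts begin. The peak list gave a position for each site and no height or score, so each site is called or not called. Every interval was 400 bp wide. The annotation used here gives gene ends and start sites but no exons, so introns and exons within the genes could not be told apart.

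The peaks for which bound sequence could be read were those at start sites deep inside genes. RefSeq (GRCm38.p6, also called mm10) lists 1185 start sites that lie in a protein-coding gene and over 10 kb from every gene end. Of these, 1.86% had a deep peak within 1 kb, 22 starts in 22 genes. At 12 of them the peak overlapped the 250 bases before the start. Sequences of 6 of these are shown for the part inside the peak, 5′ to 3′ on the strand of the gene. The first 5 hold the GATA motif and the last holds none. These 6 were chosen after their matches were seen, so they do not give the share among the 12. Capitals mark matches to AGATAA or AGATAG or TGATAA or TGATAG on either strand. Clcn3 is shown because its peak covered all 250 bases with no such match.
Grap2: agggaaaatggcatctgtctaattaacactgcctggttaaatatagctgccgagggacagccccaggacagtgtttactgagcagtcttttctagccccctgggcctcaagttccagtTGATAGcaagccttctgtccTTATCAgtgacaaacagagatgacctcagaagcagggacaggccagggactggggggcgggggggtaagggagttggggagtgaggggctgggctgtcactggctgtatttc
Tmcc2: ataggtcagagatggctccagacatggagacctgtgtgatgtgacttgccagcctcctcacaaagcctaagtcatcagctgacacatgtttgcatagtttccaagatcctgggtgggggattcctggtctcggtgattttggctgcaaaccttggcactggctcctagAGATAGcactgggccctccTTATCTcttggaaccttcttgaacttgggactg
Pik3r1: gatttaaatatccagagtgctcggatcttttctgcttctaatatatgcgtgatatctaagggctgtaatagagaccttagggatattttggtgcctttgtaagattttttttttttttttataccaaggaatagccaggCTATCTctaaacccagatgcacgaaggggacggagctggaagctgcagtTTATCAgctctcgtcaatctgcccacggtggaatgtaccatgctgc
Rab3il1: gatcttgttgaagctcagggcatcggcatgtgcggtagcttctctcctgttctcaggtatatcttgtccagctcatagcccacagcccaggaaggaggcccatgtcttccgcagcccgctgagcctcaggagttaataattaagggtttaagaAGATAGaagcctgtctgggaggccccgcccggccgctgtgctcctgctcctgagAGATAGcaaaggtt
Lims1: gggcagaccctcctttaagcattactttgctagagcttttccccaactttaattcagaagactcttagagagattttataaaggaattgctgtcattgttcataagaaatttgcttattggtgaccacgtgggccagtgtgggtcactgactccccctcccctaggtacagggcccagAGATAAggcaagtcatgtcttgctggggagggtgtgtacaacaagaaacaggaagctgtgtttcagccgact
Clcn3: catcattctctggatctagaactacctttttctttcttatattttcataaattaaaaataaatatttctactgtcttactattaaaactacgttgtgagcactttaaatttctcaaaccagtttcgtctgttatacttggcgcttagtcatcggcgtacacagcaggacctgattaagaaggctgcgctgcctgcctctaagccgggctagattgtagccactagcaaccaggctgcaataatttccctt

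These stretches were chr15:80623233-80623482, plus strand for Grap2, an adaptor of antigen receptor signalling, and chr1:132367949-132368168, minus strand for Tmcc2, a membrane protein of the endoplasmic reticulum. For Pik3r1, which encodes regulatory subunits of phosphoinositide 3-kinase, the stretch was chr13:101692631-101692864, minus strand. For Rab3il1, an exchange factor of Rab proteins, it was chr19:10014826-10015046, plus strand, and for Lims1, an adaptor of integrin adhesions, it was chr10:58371204-58371453, plus strand. For Clcn3, an intracellular chloride transporter, it was chr8:60954800-60955049, minus strand. In Grap2, Tmcc2, Pik3r1 and Rab3il1 the part inside the peak held 2 matches each, and in Lims1 it held 1. In Grap2 and Tmcc2 the matches lay in opposite orientations within a short stretch. The Pik3r1 peak midpoint was 34 bp before the start, and the start was 11.9 kb from the nearest gene end.

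Over all 12 overlapped starts, 9 (75%, Wilson interval 46.8 to 91.1%) held the GATA motif in the 250 bases before the start. The other overlapped starts with a match were those of Gmps (GMP synthase), Pacsin2 (a membrane-bending protein), Fancc (a Fanconi anaemia protein) and Pde4dip. In Pde4dip the match fell outside the peak. Clcn3, Tnpo1 (a nuclear import receptor) and Gm826 held none, and in Gm826 only 31 of the 250 bases lay in the peak. The parts of the peaks after the start were not scanned for motifs. Of all 32816 distinct start sites in the RefSeq table, 26.6% held the motif in a window of the same length, and of the 1185 deep starts 27.2% did (24.7 to 29.8%). The short core GATA alone was found at 53.6% of all starts and at 9 of the 12. AGATAA was found at 4 of 12 overlapped starts against 9.99% of all starts. The sequence CACCC, the core of the element bound by Klf1, was at 5 of the 12 (41.7%, 19.3 to 68.1%), against 52.0% of all starts. Only the 12 overlapped starts bear on sequence inside peaks, and the interval around their share is wide.

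**Figure D1:**
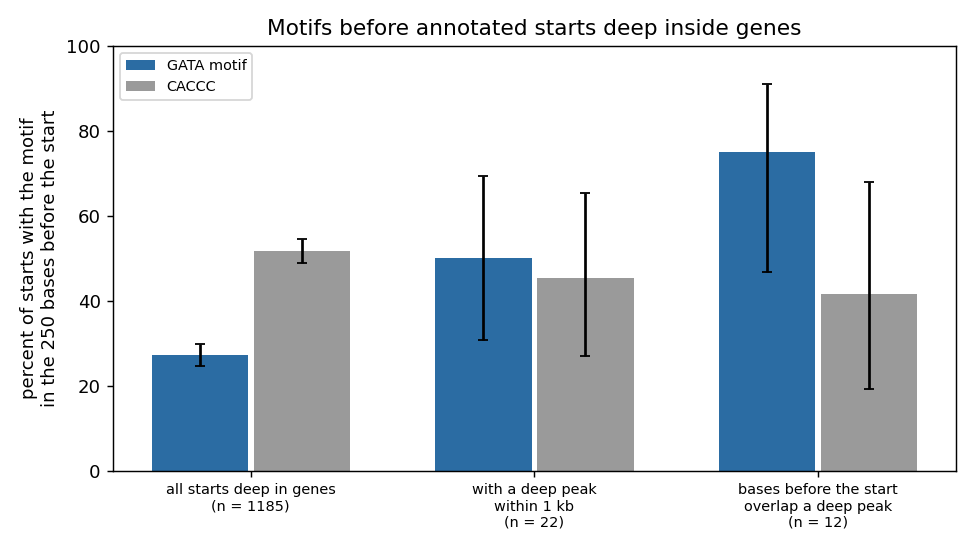
Bars give the percent of annotated start sites deep inside genes with the GATA motif (blue) or CACCC (grey) in the 250 bases before the start, with 95% Wilson intervals, for all 1185 such starts, the 22 with a deep peak within 1 kb and the 12 overlapped by a deep peak. The GATA bar is 27.2% in the first group and 75% in the last, and the CACCC bar is 51.8% and 41.7%.

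Gata1 peaks lay close to start sites listed inside deep territory more often than elsewhere in it. These starts are called internal for their place in the annotated gene body, and some are the first listed start of their gene. The peaks at Grap2, Fancc, Gmps and Lrrn4 lay before every listed start of those genes. Deep territory here means all bases inside a protein-coding gene and over 10 kb from every gene end. Within 1 kb of an internal start there were 23 deep peaks in 2.14 Mb, or 10.8 peaks per Mb (95% exact Poisson interval 6.81 to 16.1). The rest of the deep territory on chromosomes with listed starts held 813 peaks in 608 Mb, or 1.34 per Mb. The ratio was 8.04 (exact interval 5.07 to 12.1, two-sided exact binomial test of 2 rates, adjusted p = 2.6e-13 over 5 tests). The test treats peaks as independent, and it was chosen after the table of starts had been seen. These peaks were 2.75% of the 836 deep peaks on those chromosomes. Of the 22 starts, 11 had the peak midpoint before the start and 11 after it.

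The other internal starts with a peak within 1 kb included those of Abcg2, an exporter of porphyrins and drugs, with its peak 288 bp after the start, and Sptbn1, a non-erythroid beta-spectrin, with its peak 246 bp after the start. Frmd4a, a scaffold protein with a FERM domain, had a peak 330 bp after an internal start, and 2 more deep peaks followed within 3.3 kb of that start. Abcg2 had a second deep peak 1.62 kb from the first. Ptpre, a tyrosine phosphatase, had its peak 494 bp after the start and another deep peak 3.21 kb away.

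Many host genes have several start sites. Of 249 deep peaks in 180 host genes with 2 or more listed starts, 101 (40.6%, 34.7 to 46.8%) lay between the first and the last of these starts. That stretch held 44.6% of the deep territory of the same 180 genes, and 37.5% of that of all 1661 genes with 2 or more listed starts and deep territory, and no test was made. Runx1, a transcription factor needed for the emergence of blood, has a distal and a proximal promoter in the table, 128.7 kb apart, and both of its deep peaks lay between them. They were at chr16:92801551-92801950, 24.3 kb from the distal start, and at chr16:92715581-92715980, 110.3 kb from that start and 18.5 kb from the proximal one. The intron between these promoters is known to hold a blood enhancer. In 37 of the 668 deep peaks with 1 host of known strand (5.54%, 4.05 to 7.54%) the peak lay before every listed start of its host, because the gene body of the annotation reaches further than the listed starts. All 4 deep peaks of Gse1 were of this kind, at 13.2 to 200.2 kb before its first listed start, and so were 2 of the 3 in Aff1.

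Deep territory of protein-coding genes held more Gata1 peaks per base than the space far between genes. The 869 deep peaks lay in 631.7 Mb, a density of 1.38 peaks per Mb (exact Poisson interval 1.29 to 1.47). The space in no gene and over 10 kb from every gene end held 405 peaks in 983.6 Mb, or 0.412 per Mb (0.373 to 0.454). The ratio was 3.34 (2.97 to 3.77, two-sided exact binomial test, adjusted p = 5.7e-97 over 5 tests). Both territories keep over 10 kb from every gene end, and distances beyond that limit were not compared between them. Assembly gaps were not masked.

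This density depended on the size of the host gene. In genes with up to 100 kb of deep territory there were 480 deep peaks in 212.4 Mb, or 2.26 per Mb (2.06 to 2.47). The density was 1.56 per Mb with 100 to 200 kb of deep territory, 0.926 with 200 to 500 kb, and 0.387 (0.291 to 0.505) above 500 kb. The last value lay within the interval of the space far between genes. The share of genes with at least 1 deep peak still rose with territory, from 1.18% of 2538 genes with up to 10 kb to 22.8% of 162 genes with over 500 kb. Host genes had a median length of 116.1 kb, and the 8621 genes with deep territory and no deep peak had a median of 50.1 kb.

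**Figure D2:**
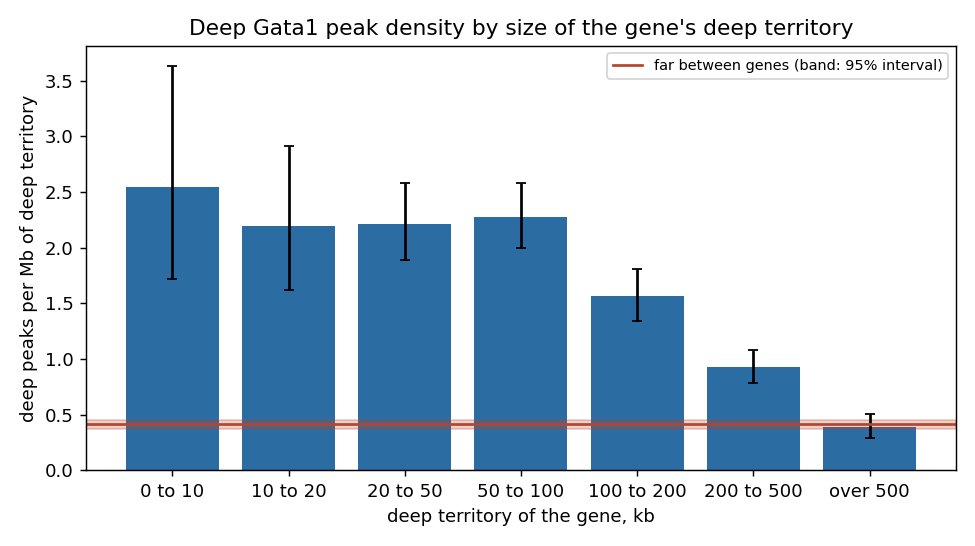
Bars give deep Gata1 peaks per Mb of deep territory for genes grouped by the size of that territory in kb, with 95% exact Poisson intervals, and the red line with its band gives the density far between genes. The first 4 groups lie between 2.20 and 2.54 per Mb, and the group over 500 kb (0.387) meets the line at 0.412.

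Genes for neuronal adhesion and synapse proteins, among the longest in the genome, show the low end. A list of long neuronal and adhesion genes held 61 with deep territory, together 65.5 Mb or 10.4% of all deep territory, and 13 deep peaks in 9 genes, or 1.496% of the deep peaks. Among them, Cdh13, Dpp6 and Wwox had 2 deep peaks each, and Macrod2, Nrxn3, Opcml, Robo2 and Tenm3 had 1 each. Their density was 0.199 per Mb (0.106 to 0.339). Genes of like territory, a group that includes the list's own genes, would carry 26.3 peaks. Among genes with over 500 kb of deep territory, the 56 on the list had 0.205 peaks per Mb (0.109 to 0.351) and the 106 others had 0.539 (0.387 to 0.731). The 3 genes with the largest deep territory and no peak in it were Dmd, encoding dystrophin, with 2215 kb, Ptprd, a receptor phosphatase of synapses, with 2050 kb, and Lsamp, a neuronal adhesion protein, with 2018 kb. None of the 3 had a Gata1 peak anywhere in the gene. Dmd lies on the X, where deep peaks were sparse throughout: 6 in 29.5 Mb, or 0.204 per Mb (0.0747 to 0.443), against 1.44 on the autosomes (1.34 to 1.53). The 6 X-linked hosts were Amot, Arhgap6, Arhgef6, Med12, Rbm41 and Reps2, with 1 deep peak each. The highest autosomal density was 2.21 per Mb on chromosome 11 and the lowest 0.890 on chromosome 16.

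Within the host genes, deep peaks leaned slightly towards the start. Of 668 deep peaks with 1 host of known strand, 364 (54.5%, 50.7 to 58.2%) were nearer the start than the end, where 50.2% of the deep territory lies (two-sided exact binomial test, adjusted p = 0.046 over 5 tests). The call ended when only the territory of the host genes was used (50.5% of it nearer the start, exact test, adjusted p = 0.074) and when peaks kept 20 kb from every gene end (55.5% nearer the start, exact test, adjusted p = 0.067). By distance from the start, the density was 2.13 per Mb at 10 to 15 kb, 2.20 at 30 to 50 kb, 1.02 at 100 to 200 kb and 0.482 beyond 500 kb. By distance from the end it was 2.00, 1.95, 1.25 and 0.241 over the same distances. The far distances are reached only in long genes, so distance and gene size cannot be told apart here.

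**Figure D3:**
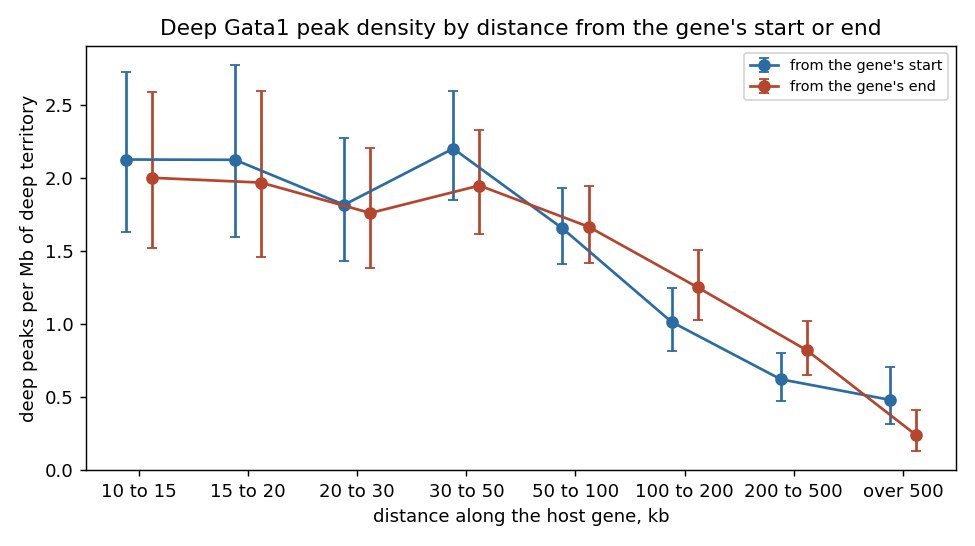
Points give deep Gata1 peaks per Mb of deep territory by distance in kb from the host gene's start (blue) or end (red), with 95% exact Poisson intervals. Both curves stay near 2 per Mb up to 50 kb and fall beyond it, to 0.482 and 0.241 past 500 kb.

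The midpoints of deep peaks were a median of 24.0 kb from the nearest gene end, with quartiles of 15.1 and 38.9 kb and a maximum of 294.7 kb. The peak farthest from any gene end lay in Dpp6, a subunit of neuronal potassium channels, at chr5:27200938-27201337. Next came 2 peaks 11.98 kb apart in Fat3, an atypical cadherin, 275.1 and 287.1 kb from any gene end. Etl4, a gene of 900.3 kb, and Sox5, a Sox family transcription factor, followed at 230.1 and 218.5 kb. Just inside the limit of 10 kb were peaks in Tbc1d2b (10.04 kb), Kdm2b (10.06 kb) and Stk3 (10.08 kb). Just outside it were peaks in Ece1 (9.97 kb), Grhl2 (9.97 kb) and Rnf216 (9.96 kb).

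Deep peaks stood mostly alone. Of 869, 127 (14.6%, 12.4 to 17.1%) had another Gata1 peak within 10 kb, against 53 of 405 peaks far between genes (13.1%, 10.2 to 16.7%). The odds ratio was 1.14 with an interval from 0.805 to 1.61 (two-sided Fisher's exact test, adjusted p = 0.49 over 5 tests). Standing alone was not particular to deep peaks: of peaks near a gene end, 503 of 2802 (17.95%, 16.6 to 19.4%) had another within 10 kb. Within hosts, 561 genes had 1 deep peak, 115 had 2, 19 had 3 and 6 had 4. Successive deep peaks of a host were a median of 20.6 kb apart, and 59 of 171 such gaps were within 10 kb and 16 within 2 kb. Positions alone do not tell a pair of close sites from 1 wide bound region.

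Few host genes also had a peak at their own ends. Among 701 host genes, 36 (5.14%, 3.73 to 7.03%) also had a peak within 1 kb of an own end, against 362 of 8621 genes with deep territory and no deep peak (4.199%, 3.80 to 4.64%). Over all these genes the share was 4.27%. The odds ratio was 1.24 (0.869 to 1.76, two-sided Fisher's exact test, adjusted p = 0.30 over 5 tests). Among genes of 103.2 kb and more, the longest of 4 length groups, the shares were 5.13% and 2.83% (odds ratio 1.85, exact test, adjusted p = 0.11 over the 4 groups). With a window of 10 kb from either own end the difference passed the threshold, at 124 of 701 hosts (17.7%) against 1173 of 8621 (13.6%, odds ratio 1.37, 1.11 to 1.67, exact test, adjusted p = 0.0062). Hosts were longer than the other genes, and the 10 kb window was not split by gene length. In 575 of the 701 hosts (82.0%) the only Gata1 peaks inside the gene were deep ones. The share of genes without a deep peak that held no peak at all was not computed. The 82.0% therefore does not set hosts apart from other genes.

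The 6 genes with 4 deep peaks were Zfpm1, Gse1, Prkca, Prkce, Rere and Ankrd6. Zfpm1 packed them most densely: 4 in 32.7 kb of deep territory. They lay at chr8:122309349-122309748, chr8:122313346-122313745, chr8:122321662-122322061 and chr8:122322701-122323100, which is 27.7 to 41.0 kb from the start of a gene of 56.0 kb. The last 2 were 1.04 kb apart, and 4 further peaks lay within 21.2% of the gene's length from its start, 1 of them within 1 kb of it. With a limit of 20 kb, 2 of the Zfpm1 peaks counted as deep. Gse1, a component of the LSD1-CoREST corepressor complex, had its 4 in 250.1 kb of deep territory, of which a pair 1.79 kb apart lay at chr8:120369951-120370350 and chr8:120371737-120372136. With the ends of protein-coding genes only, all 7 Gse1 peaks were deep. Rere, a nuclear receptor coregulator, had 4 in 260.0 kb, 92.0 to 236.1 kb from its start. Ankrd6, an ankyrin repeat protein of Wnt signalling, had 4 in 106.2 kb, and its closest pair was only 0.551 kb apart.

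The protein kinase C genes Prkca and Prkce each had 4 deep peaks. In Prkca they were spread at 41.2, 79.8, 97.5 and 195.2 kb from the start, all in the start-side part of a gene of 410.5 kb. Prkce had none of its peaks outside the deep territory, and with a limit of 20 kb 2 of its 4 remained deep. The 19 genes with 3 deep peaks included Frs2, an adaptor of fibroblast growth factor receptors, Mbnl1, a splicing regulator, Aff1, a subunit of elongation complexes, and St3gal1, a sialyltransferase. In Frs2 all 3 lay between 42.1 and 55.4 kb from the start. In Dapk1, a death-associated kinase, all 3 lay at the far side of the gene, 136.9 to 143.9 kb from the start of a gene of 161.5 kb, and 1 of them was deep at a limit of 20 kb. Pde4d, a cyclic AMP phosphodiesterase gene of 1302 kb, had 3, of which a pair lay 4.07 kb apart.

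**Figure D4:**
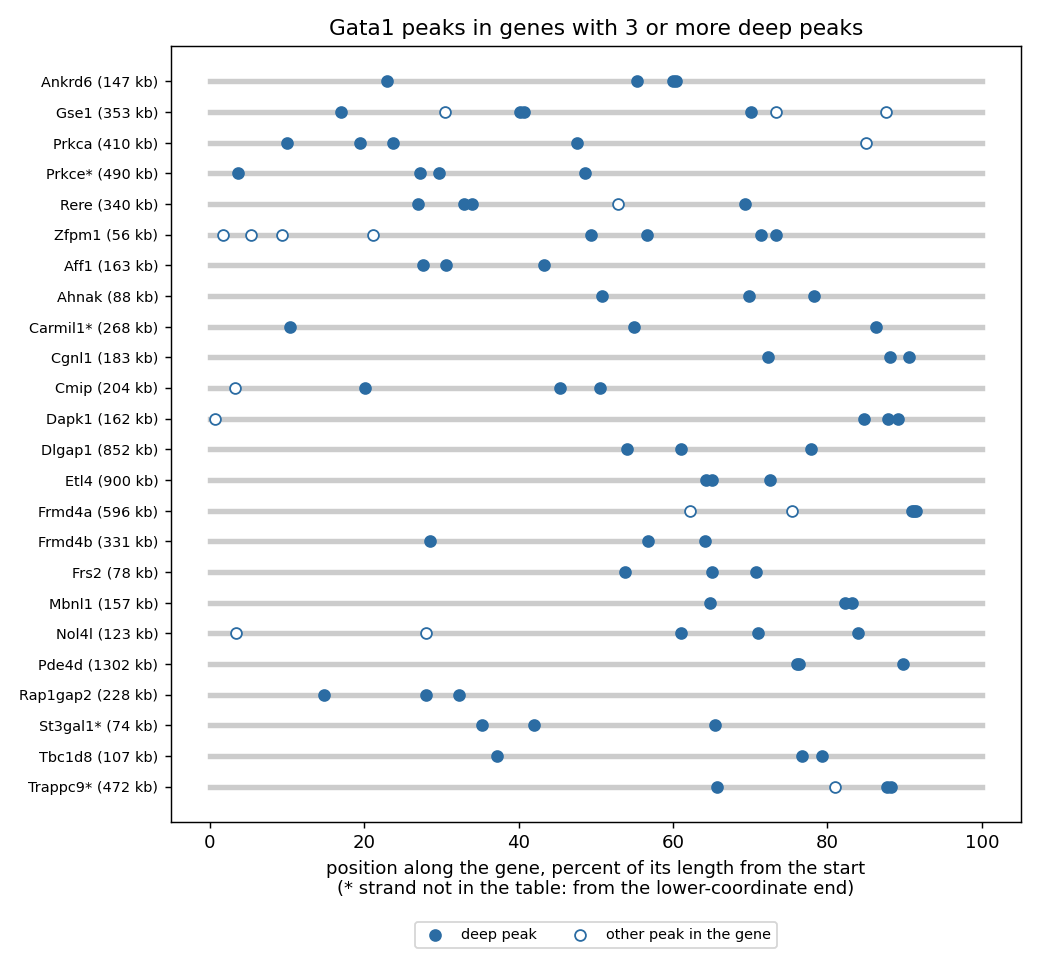
Each line is a gene with 3 or more deep peaks, drawn from its start to its end as percent of its length. Filled points are deep peaks and open points are its other Gata1 peaks. Genes marked with an asterisk (Prkce, Carmil1, St3gal1 and Trappc9) have no listed strand and are drawn from the lower-coordinate end. Zfpm1 shows 4 open points near its start and 4 filled ones further in, and Dapk1 shows its 3 filled points near the end.

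Gene lists were read against the share over all genes with deep territory: 701 of 9322, or 7.52%, had a deep peak. Larger genes reach higher shares, so each list is also set against the number that genes of like territory carry at their own density. The genes of like territory include those of the list itself. The lists were drawn up with earlier results of these data known, and no test was made for a list.

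Blood transcription factors had a deep peak in 11 of 25 genes with deep territory (44.0%, 26.7 to 62.9%), with 22 peaks at 6.72 per Mb (4.21 to 10.2). Genes of like territory would carry 4.00 peaks. Besides Zfpm1 with 4, 6 of them had 2 deep peaks, Runx1 among them. Cbfa2t3, encoding the Tal1 complex corepressor Eto2, had its pair 13.6 and 32.8 kb from the start. Fli1, a megakaryocyte and endothelial Ets factor, had 2 peaks 4.97 kb apart at chr9:32514618-32515017 and chr9:32519586-32519985. Sox6, a silencer of embryonic globin, had 2 peaks 391.2 kb apart, at 98.9 and 490.1 kb from the start. Zbtb16, a zinc finger repressor, and Rreb1, a zinc finger factor of Ras signalling, had pairs 19.4 and 5.76 kb apart. Etv6, Ikzf1 and Tcf12 had 1 each. The list's other genes with deep territory had none, among them Foxp1 (443.8 kb of territory), Mecom (458.2 kb), Erg (207.4 kb) and Bcl11a (64.0 kb).

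Genes of the red cell membrane and its skeleton had a deep peak in 6 of 21 (28.6%, 13.8 to 49.96%), with 8 peaks at 9.98 per Mb (4.31 to 19.6) where genes of like territory would carry 1.58. Sptb, the erythroid beta-spectrin, had a pair at chr12:76670639-76671038 and chr12:76673742-76674141, 36.6 and 39.7 kb from the start. Gypc, encoding glycophorin C, had 2 peaks 4.03 kb apart within only 11.7 kb of deep territory. Ank1 (ankyrin), Dmtn (dematin), Add3 (an adducin) and Cd44 (an adhesion receptor) had 1 each. Epb41 (107.5 kb of territory) and Add2 (75.7 kb) had none in theirs.

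Haem and iron genes are short, and only 11 had deep territory. Uros, encoding uroporphyrinogen III synthase, had the single deep peak, at chr7:133697997-133698396, 12.3 kb from the start. That is 9.09% of the 11 genes (1.62 to 37.7%), near the share over all genes, and the peak was not deep at a limit of 20 kb. Genes of like territory would carry 0.498 peaks.

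Glycolysis and glucose genes had the highest density, 20.8 per Mb (7.64 to 45.3), from 6 peaks in 5 of 13 genes (38.5%, 17.7 to 64.5%). Genes of like territory would carry 0.650. Hk1, hexokinase 1, had 2 peaks 1.51 kb apart at chr10:62327517-62327916 and chr10:62329023-62329422, 50.7 and 52.2 kb from its start. Bpgm, which makes the red cell's regulator of haemoglobin oxygen affinity, had 1 peak 10.2 kb from the start. Pfkm (a phosphofructokinase), Pfkfb4 (a regulator of glycolysis) and Slc2a3 (a glucose transporter) had 1 each. The territory of these genes is small, with a median of 18.9 kb, and with a limit of 20 kb in place of 10 kb the count was 0.

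Genes of protein kinases C and A and of calcium signalling had a deep peak in 12 of 31 (38.7%, 23.7 to 56.2%), with 20 peaks at 4.34 per Mb (2.65 to 6.71) where genes of like territory would carry 5.33. Besides Prkca and Prkce, Plcg2, a phospholipase C of blood cell receptors, had 2 peaks 4.67 kb apart, and Prkar2b, a regulatory subunit of protein kinase A, had 2 peaks 13.2 kb apart. Prkcq, Prkch, Camk2d, Nfatc1, the inositol trisphosphate receptor genes Itpr1 and Itpr2, and the phospholipase genes Plcb4 and Plcl2 had 1 each. Plcb1 (570.7 kb of territory), Camk1d (324.1 kb) and Prkcb (296.6 kb) had none. Genes of the cell cycle and growth arrest had 4 of 13 (30.8%, 12.7 to 57.6%): Frs2 with 3, Ccnd3 (cyclin D3) and Hipk2 (a nuclear kinase) with 2 each, and Cdk14 with 1. Their 8 peaks, at 7.502 per Mb (3.24 to 14.8), compare with 1.25 at the density of genes of like territory. Of these 8, 3 came from Frs2, a receptor adaptor rather than a cell cycle protein.

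Cytokine and growth factor signalling had 5 of 35 (14.3%), where Smad1, a transducer of bone morphogenetic protein signals, had a pair at 18.8 and 23.6 kb from the start, Igf1r and Notch2 had 2 each, and Gab2 and Pik3r1 had 1 each. The 8 peaks compare with 4.04 at the density of genes of like territory. Chromatin corepressors had 5 of 29 (17.2%), among them Gse1 with 4 and Rcor1, Hdac4 and Ncor1 with 1 each, and 3 genes kept a deep peak at a limit of 20 kb. Their 8 peaks compare with 3.12 in genes of like territory. Chromatin remodelling and histone enzymes had 6 of 27 (22.2%), namely Arid1a, Arid1b, Kdm2b, Kdm4b, Ezh2 and Tet3 with 1 each, and 2 genes had one at a limit of 20 kb. These 6 peaks compare with 3.42. Actin and adhesion genes had 6 of 41 (14.6%), with 3 peaks each in Frmd4a and Frmd4b, and autophagy and ubiquitin genes had 2 of 28 (7.14%), Nedd4 and Nedd4l. The actin and adhesion genes held 10 peaks where genes of like territory would carry 7.38, and the autophagy and ubiquitin genes held 3 against 3.58.

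Markers of other lineages were read in the same way. Megakaryocyte and platelet genes had 3 of 12 (0 at a limit of 20 kb), namely Itgb3, an integrin of platelets, Vwf (von Willebrand factor) and Myh9, a non-muscle myosin. These 3 peaks compare with 1.55 in genes of like territory. Endothelial genes had 4 of 17 (2 at a limit of 20 kb): Kdr, the receptor of vascular endothelial growth factor, with a peak at chr5:75962236-75962635 and 16.6 kb from its start, Ets1, and Vwf and Prkce, which other lists hold too. They had 7 peaks at 3.56 per Mb (1.43 to 7.34), 4 of them in Prkce, where genes of like territory would carry 2.35. Lin28b was the 1 of 5 pluripotency genes with a deep peak, and genes of like territory would carry 0.720 peaks. Cardiac and mesoderm, myeloid and macrophage, and housekeeping genes had 0 of 10 each, which allows a share of up to 30% by the limit of 3 counts, and mast cell and eosinophil genes had 0 of 6 (up to 50%). At the density of genes of like territory these 4 lists would carry 1.18, 0.953, 0.354 and 0.584 peaks, so an absence of peaks there was not distinguishable at this number of genes.

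**Figure D5:**
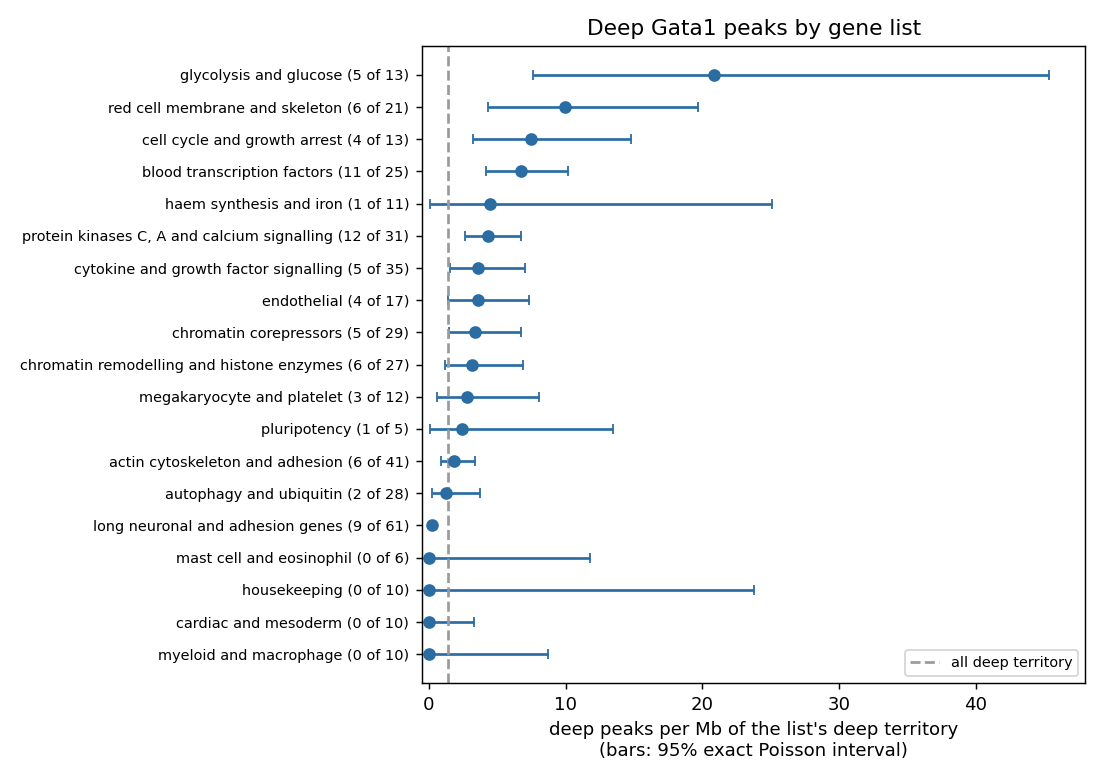
Points give deep Gata1 peaks per Mb of deep territory for 19 gene lists, with 95% exact Poisson intervals, and in brackets the genes with a deep peak of those with deep territory; the dashed line is the density over all deep territory, 1.38 per Mb. The intervals of 8 lists lie wholly above the line, among them glycolysis, red cell membrane, cell cycle and blood transcription factor genes. That of long neuronal and adhesion genes lies below it. The line is not matched for gene size: genes with up to 100 kb of deep territory held 2.26 per Mb. The intervals of endothelial (from 1.43), chromatin corepressor (from 1.47) and cytokine genes (from 1.55) clear the line but reach below 2.26. No test was made for a list.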

How the data were processed

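Gata1 ChIP-seq peaks of 1 library were used. The deposited list gives 4135 peak positions by chromosome, start and end, with no counts, score or signal, so read depth is unknown; 2 mitochondrial peaks were left out. Per the submitters' processing notes, Bowtie2 2.0.6 and MACS2 2.0.10 were used on mm10. Settings, threshold and any use of the control: not given in the sources used here. Per the labels' protocols, fragments of 150 to 400 bp were selected.

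Gene bodies came from RefSeq (GRCm38.p6), leaving out autosomal and X entries starting below 3 Mb, which left 49603 genes, 21779 of them protein-coding. Strand and start sites came from 32850 RefSeq promoter entries, which hold no entry for some genes. No genome sequence was used. Of 652 list entries in 20 lists, 650 matched a protein-coding gene, and results for a few genes and 1 list are not reported here. Positions are 1-based, and distances are from peak midpoints. Densities carry exact Poisson intervals and shares Wilson intervals, both at 95% and for counting error only.

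The tests were 5: density, neighbours, gene ends, position along the gene and internal starts, with Benjamini-Hochberg adjustment over them. The planned motif test between peak classes was not run because it needs a genome. Genes were named if they had most deep peaks (3 or more), were on a list with a deep peak, held the farthest peaks or those nearest the limit, or were the longest without one; other names, those at internal starts and list members without a peak among them, were chosen after their values were seen. The members and lists were chosen with earlier results of these data known. Python 3.11.15, numpy 2.4.6, pandas 2.3.3, scipy 1.17.1 and matplotlib 3.10.9 were used, and the density test was tested on simulated data. Alternatives were the distance to gene ends, coding ends only, whole intervals, runs of close peaks counted 1 time, autosomes only, and other windows.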

Additional observations from a re-analysis of the deposited data

How the results depend on the processing

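The number of deep peaks was 1236 with a limit of 5 kb, 513 with 20 kb, 1113 with the ends of protein-coding genes only, 860 with whole intervals and 807 with runs of close peaks counted 1 time. The density ratio stayed between 2.93 and 3.90 under its 4 alternatives, each past the threshold. The ratio near internal starts was 12.2 within 500 bp and 5.81 within 2 kb, alternatives chosen after seeing the data, as was the territory of host genes only. The lean towards gene starts was no longer past the threshold at 20 kb (55.5%, exact test, adjusted p = 0.067) or against host territory only (54.5%, adjusted p = 0.074), and stayed past it with close peaks counted 1 time (54.9%, adjusted p = 0.036). Peaks at own gene ends passed it only with 10 kb windows (odds ratio 1.37), which were not split by gene length. The neighbour comparison stayed short of it under 3 alternatives, and came closest with neighbours within 5 kb (odds ratio 1.55, Fisher's exact test, adjusted p = 0.065). List genes with a deep peak numbered 86, and 115, 60 and 101 with 5 kb, 20 kb and coding ends. At 20 kb the counts of 7 of 20 lists moved by over 1.5 times, and 4 of these fell to 0, the haem, megakaryocyte, glycolysis and pluripotency lists. Deep peaks fell to 2 in Zfpm1 and Prkce and to 1 in Dapk1 and Frmd4b at 20 kb, and were 7 in Gse1 and 5 in Frmd4a with coding ends. No paired analysis was possible because there was 1 ChIP library. With no score or depth to examine, weaker binding in genes without a called peak cannot be judged.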
